A study of Mus musculus with 4 samples.

Results

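The promoters of long noncoding RNA (lncRNA) genes that lie away from protein-coding genes were examined by ATAC-seq in a line of mouse macrophages, RAW264.7. Here the transposase Tn5 inserts adapters where chromatin is open, and sequenced fragments pile up into peaks at such sites. Members were the lncRNA genes of the mouse RefSeq annotation on chromosomes 1 to 19 whose transcription start site (TSS) was over 3 kb from every protein-coding TSS. This gave 8972 genes out of 31347 lncRNA and coding promoters on these chromosomes, and 633 of the 8972 (7.06%, 95% exact binomial interval 6.53 to 7.60) had a peak summit within 1 kb of the TSS in 1 or more of 4 libraries. A promoter with such a summit is referred to as called. All cells received 25 ug/mL DIL-oxLDL, oxidised low-density lipoprotein carrying a fluorescent dye, for 24 h. The 2 control libraries came from cells given the solvent DMSO, and the 2 esculetin libraries from cells given 40 ug/mL esculetin, a plant coumarin. RAW264.7 is 1 transformed line, and the labels do not state that the libraries of a group came from separate cultures, so any p value measures the spread between libraries, which may be technical.

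lncRNAs are transcripts without a long open reading frame, made by RNA polymerase II and in many cases spliced. Some act in the nucleus as scaffolds or as regulators of neighbouring genes, and others serve as hosts from whose introns or exons snoRNAs and microRNAs are cut. An open lncRNA promoter shows that transcription factors and the polymerase have access to the DNA there. It is not a measure of the RNA, and a site far from coding genes may also be an enhancer that is transcribed.

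Promoter sequences of 9 members are printed as examples of CpG content in members called in all libraries and in others. Each is the RefSeq sequence on the GRCm38.p6 build, 5′ to 3′ on the strand of the gene, from 250 bases before the TSS to 50 bases from the TSS onward, with CpG dinucleotides in capitals. The first 4 were called in all 4 libraries. Snhg5 (chr9:88522848-88523147, minus strand) and Snhg8 (chr3:123508287-123508586, minus strand) are snoRNA host genes. Chaserr (chr7:73558346-73558645, minus strand) encodes a noncoding RNA that lowers the expression of its neighbour Chd2, and Mir22hg (chr11:75461289-75461588, plus strand) is the host of the microRNA miR-22. The 4 sequences hold 36, 30, 30 and 12 CpG dinucleotides.
Snhg5: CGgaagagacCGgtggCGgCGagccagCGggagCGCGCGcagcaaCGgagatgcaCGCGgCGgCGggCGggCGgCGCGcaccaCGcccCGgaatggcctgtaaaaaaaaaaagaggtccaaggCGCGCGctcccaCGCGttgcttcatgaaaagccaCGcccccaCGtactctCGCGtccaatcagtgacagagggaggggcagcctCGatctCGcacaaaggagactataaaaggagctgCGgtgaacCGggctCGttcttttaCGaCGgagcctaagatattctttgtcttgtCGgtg
Snhg8: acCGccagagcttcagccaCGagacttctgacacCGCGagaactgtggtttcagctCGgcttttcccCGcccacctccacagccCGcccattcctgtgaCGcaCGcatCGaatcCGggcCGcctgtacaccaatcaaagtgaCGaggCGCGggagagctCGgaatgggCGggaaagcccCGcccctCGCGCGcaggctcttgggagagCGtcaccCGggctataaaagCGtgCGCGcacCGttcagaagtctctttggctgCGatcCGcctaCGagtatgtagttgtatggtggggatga
Chaserr: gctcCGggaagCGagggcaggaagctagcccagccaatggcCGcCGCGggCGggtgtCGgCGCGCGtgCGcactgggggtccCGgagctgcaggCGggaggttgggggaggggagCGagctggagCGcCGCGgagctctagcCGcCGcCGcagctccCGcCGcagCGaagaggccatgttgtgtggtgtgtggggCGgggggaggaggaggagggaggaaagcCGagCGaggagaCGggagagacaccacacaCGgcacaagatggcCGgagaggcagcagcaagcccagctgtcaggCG
Mir22hg: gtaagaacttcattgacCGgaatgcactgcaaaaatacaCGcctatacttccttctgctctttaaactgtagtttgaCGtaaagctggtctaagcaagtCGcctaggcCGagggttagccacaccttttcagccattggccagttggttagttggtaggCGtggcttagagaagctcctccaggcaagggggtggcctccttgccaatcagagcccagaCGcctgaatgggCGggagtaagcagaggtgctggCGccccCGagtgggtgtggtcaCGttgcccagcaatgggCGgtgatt
The next 4 were called in both control libraries and in neither esculetin library. Dnmt3aos (chr12:3862195-3862494, minus strand) is transcribed from the strand opposite to the DNA methyltransferase gene Dnmt3a. Gm36462 (chr2:173061858-173062157, minus strand), Gm42005 (chr5:113873106-113873405, plus strand) and E130018N17Rik (chr2:168154464-168154763, minus strand) are lncRNA genes without a name of their own. These 4 sequences hold 2, 8, 4 and 5 CpG dinucleotides.
Dnmt3aos: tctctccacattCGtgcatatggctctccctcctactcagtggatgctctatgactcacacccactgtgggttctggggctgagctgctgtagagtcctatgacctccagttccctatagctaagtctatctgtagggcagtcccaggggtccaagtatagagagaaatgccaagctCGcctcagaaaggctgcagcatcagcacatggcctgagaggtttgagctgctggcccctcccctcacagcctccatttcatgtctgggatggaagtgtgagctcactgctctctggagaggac
Gm36462: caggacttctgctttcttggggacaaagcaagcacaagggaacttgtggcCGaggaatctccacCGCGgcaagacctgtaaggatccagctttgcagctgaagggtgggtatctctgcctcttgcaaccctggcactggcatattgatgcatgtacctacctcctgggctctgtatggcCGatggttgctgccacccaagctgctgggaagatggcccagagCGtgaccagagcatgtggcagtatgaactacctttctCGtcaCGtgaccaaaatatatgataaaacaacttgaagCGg
Gm42005: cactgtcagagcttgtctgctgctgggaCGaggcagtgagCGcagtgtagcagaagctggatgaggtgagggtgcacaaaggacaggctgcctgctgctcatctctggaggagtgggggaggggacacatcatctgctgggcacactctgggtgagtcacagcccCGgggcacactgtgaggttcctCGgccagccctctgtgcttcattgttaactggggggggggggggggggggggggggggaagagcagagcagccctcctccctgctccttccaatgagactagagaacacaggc
E130018N17Rik: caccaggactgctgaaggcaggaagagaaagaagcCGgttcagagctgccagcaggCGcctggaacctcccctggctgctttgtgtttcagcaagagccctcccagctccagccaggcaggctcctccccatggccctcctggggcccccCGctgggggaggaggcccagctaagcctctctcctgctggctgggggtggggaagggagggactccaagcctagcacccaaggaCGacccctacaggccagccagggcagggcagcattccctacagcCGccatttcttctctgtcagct
Gm46178 (chr1:191120652-191120951, plus strand) was the member called in both esculetin libraries and in no control library, and its sequence holds 2 CpG dinucleotides.
Gm46178: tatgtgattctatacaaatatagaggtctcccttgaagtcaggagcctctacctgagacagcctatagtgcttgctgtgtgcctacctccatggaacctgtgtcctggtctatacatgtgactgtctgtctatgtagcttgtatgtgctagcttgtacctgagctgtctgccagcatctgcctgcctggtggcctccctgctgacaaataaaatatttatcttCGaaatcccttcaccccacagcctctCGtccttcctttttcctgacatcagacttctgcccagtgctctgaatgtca

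The lists of control 1 and control 2 held 19595 and 27833 peaks and those of esculetin 1 and esculetin 2 held 8677 and 12792, and read depth is unknown since the lists give no counts of reads. Control 2 stood apart in its strongest peaks away from promoters. Of its peaks over 3 kb from every lncRNA and coding TSS that ranked above percentile 75 of the list, 14.6% were overlapped by a peak of esculetin 1, against 48.4% for control 1. Of 9 macrophage markers, 3 and 4 had a called promoter in the controls and 1 and 2 in the esculetin libraries, with Spi1 (the myeloid factor PU.1) called in all 4. Csf1r, Adgre1, Itgam, Mrc1 and Marco had none within 1 kb of the RefSeq 5′ end. Over all coding promoters, 38.7% and 40.2% were called in the controls and 29.1% and 36.3% in the esculetin libraries. The 9 markers thus do not set macrophage genes apart from other coding genes. None of 27 markers of T cells, B cells, epithelium, fibroblasts, endothelium, neurons or muscle had a called promoter in any library. The peak names inside the lists number the esculetin libraries differently from the labels, and the labels were followed.

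Fewer lncRNA promoters were called in the esculetin libraries than in the controls. Control 1 and control 2 had 452 and 451 called members, and esculetin 1 and esculetin 2 had 148 and 260. The groups did not overlap, with means of 451.5 ± 0.707 (SD, n = 2) in the controls and 204 ± 79.2 (SD, n = 2) with esculetin, a ratio of 2.21. As shares of the 8972 members, these counts were 5.04% (95% exact binomial interval 4.59 to 5.51), 5.03% (4.58 to 5.50), 1.65% (1.40 to 1.93) and 2.90% (2.56 to 3.27). Among the 20256 coding promoters, 38.7% and 40.2% were called in the controls and 29.1% and 36.3% in the esculetin libraries, a control mean 1.21 times that of esculetin. The 2119 lncRNA promoters within 3 kb of a coding TSS followed the coding genes, with 840, 895, 660 and 798 called and a ratio of 1.19. In bulk cells, a site open in fewer cells and a site less open in each cell cannot be told apart.

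The share of lncRNA promoters called, divided by the share of coding promoters called in the same library, was 0.130 in control 1, 0.125 in control 2, 0.0567 in esculetin 1 and 0.0798 in esculetin 2. Both esculetin libraries lay below both controls (0.0683 ± 0.0163 against 0.128 ± 0.00348, SD, n = 2 each). The two-sided exact permutation test over the 6 ways to split the 4 libraries gave p = 0.333 for the count and for this ratio, which is the smallest p this test can give with 2 libraries a group, so it cannot pass a threshold of 0.05 here. The length of the list moved with the group. With each list cut to its 8413 strongest peaks, 199, 120, 148 and 160 members were called, the groups overlapped, and the mean difference was -5.5 promoters instead of -247.5. Coding promoters went the other way with these peaks, with 26.5% and 19.1% called in the controls and 29.1% and 31.4% in the esculetin libraries. The ratio to coding promoters then differed by -0.0201 instead of -0.0593. Leaving out a library from these shortened lists, a setting chosen after the data were seen, gave a difference of 34 promoters without control 1, -45 without control 2, 0.5 without esculetin 1 and -11.5 without esculetin 2, so the direction rests on single libraries.

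**Figure D1:**
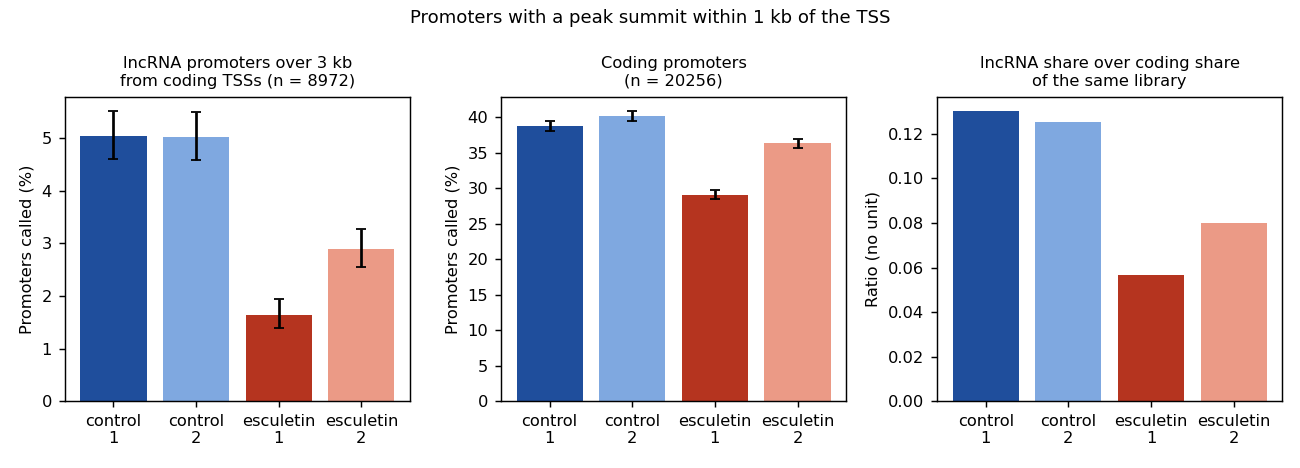
Bars give the percent of lncRNA promoters away from coding genes (left) and of coding promoters (middle) with a peak summit within 1 kb of the TSS in each library, with 95% exact binomial intervals that cover counting error only, and the ratio of both shares (right, no error bar). The vertical axes start at 0 and differ in height. The lncRNA shares are 5.04% and 5.03% in the controls and 1.65% and 2.90% with esculetin, and the coding shares differ by a smaller factor.

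The called summits gathered at the TSS in every library. The density within 250 bp of the TSS was 5.55, 4.43, 5.01 and 5.25 times the density 5 to 10 kb away, in the order control 1, control 2, esculetin 1 and esculetin 2. Coding promoters gave ratios of 39.9, 26.4, 63.4 and 56.0. Among called members, 57.1%, 58.3%, 57.4% and 58.8% had their nearest summit within 250 bp of the TSS, against 79.9% to 82.1% of called coding promoters, and the group means differed by 0.442 percentage points (exact permutation p = 0.667). With peaks of −log10 q of at least 5 the difference was 4.57 points, 63.2% with esculetin against 58.6%, and the groups did not overlap (exact permutation p = 0.333). The peaks were also narrower, with a median width of 338, 343, 346.5 and 327.5 bp against 444 to 461 bp at coding promoters. More than 1 summit in the window was found at 44 and 39 members in the controls and at 2 and 11 in the esculetin libraries, which is 9.73%, 8.65%, 1.35% and 4.23% of those called. Called coding promoters gave 10.1%, 11.3%, 3.29% and 3.51%, also without overlap of the groups. At the edge of the window, 14, 11, 4 and 8 summits lay 900 to 1000 bp from the TSS and 20, 28, 3 and 11 lay 1000 to 1100 bp away.

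**Figure D2:**
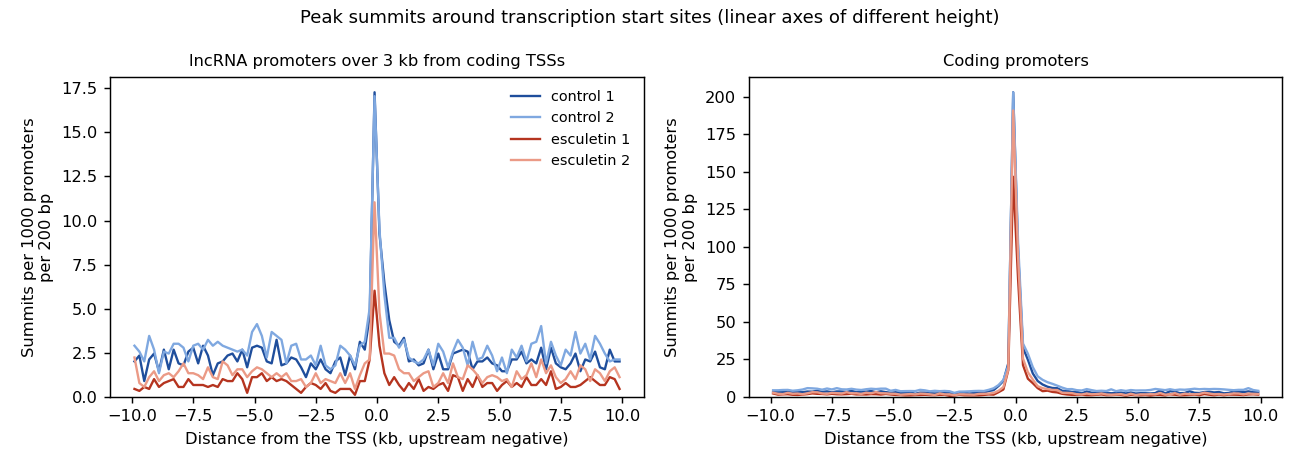
Lines give peak summits per 1000 promoters in bins of 200 bp, from 10 kb upstream (negative) to 10 kb downstream of the TSS, for lncRNA promoters away from coding genes (left) and coding promoters (right), with a line for each library. The linear vertical axes differ in height. All 4 libraries peak at the TSS in both panels, with a control peak near the lncRNA TSS above both esculetin lines.

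Peak strength was read as a percentile, the rank of a peak by its −log10 p within its own list with 100 as the strongest, since p and fold depend on depth. A peak of the same rank from the top has a lower percentile in a shorter list, so a lower percentile in the esculetin libraries is no measure of weaker opening. The strongest peak of the called members had a median percentile of 49.3 and 47.8 in the controls and 41.1 and 42.8 in the esculetin libraries. Called coding promoters had medians of 72.3, 66.9, 60.7 and 67.7. The gap between both was -23.0, -19.1, -19.6 and -24.9 percentile points, the groups overlapped, and the means differed by -1.14 points (exact permutation p = 0.667). With the 8413 strongest peaks of each list, the mean gap was -4.65 points in the controls and -15.5 with esculetin, a difference of -10.8 with groups that did not overlap (exact permutation p = 0.333). The peaks at members made up 2.49% and 1.76% of the control lists and 1.71% and 2.10% of the esculetin lists, which also overlapped (difference -0.222 percentage points, exact permutation p = 0.667). Members whose TSS lay inside a coding gene were 23.9% and 26.6% of those called in the controls and 18.2% and 21.2% in the esculetin libraries, against 24.8% of all 8972 members (difference -5.55 percentage points, exact permutation p = 0.333).

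Of the 633 called members, 107 (16.9%) were called in all 4 libraries, 153 (24.2%) in both controls and no esculetin library, and 1 in both esculetin libraries and no control. The same 3 counts for coding promoters were 5242, 690 and 86, which are 25.9%, 3.41% and 0.425% of all coding promoters tested. As shares of the 9146 coding promoters called in 1 or more libraries, they were 57.3%, 7.54% and 0.940%. Of the 333 members called in both controls, 180 were also called in 1 or more esculetin libraries (54.1%, 95% exact binomial interval 48.5 to 59.5). The corresponding share was 90.5% (89.8 to 91.2) for coding promoters and 90.9% (88.7 to 92.9) for lncRNA promoters near coding genes. In the other direction, 93.9% of the 148 members called in esculetin 1 and 78.8% of the 260 called in esculetin 2 were called in a control. The rest were called in 1 library alone (94 in control 1, 99 in control 2, 8 in esculetin 1 and 54 in esculetin 2), in both controls and esculetin 2 (59), in both controls and esculetin 1 (14), or in 6 other combinations of 1 to 17 members each.

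The classes also differed in strength where they were called. Members called in all 4 libraries had median percentiles of 80.0, 72.8, 50.9 and 66.7, while those called in both controls alone had medians of 50.2 and 44.3. Leaving out a library asks for fewer calls, so the class sizes could only stay or rise. Leaving out esculetin 1 raised the count in all remaining libraries from 107 to 166. Leaving out control 1 or control 2 raised the count called in controls and no esculetin library from 153 to 252 or 247. The class called in esculetin libraries and no control held 5, 10, 55 and 9 members without control 1, control 2, esculetin 1 and esculetin 2. With the 8413 strongest peaks of each list, the 3 classes held 58, 17 and 24 members.

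Named lncRNAs are given by role, with percentiles in the order control 1, control 2, esculetin 1 and esculetin 2. Of 13 snoRNA and other small RNA host genes among the members, 12 were called, 5 of them in all 4 libraries and none in the controls alone. The libraries called 9, 10, 7 and 10 of these host genes, while over all members 5.04%, 5.03%, 1.65% and 2.90% were called, and 7.06% in 1 or more libraries. Snhg5 stood at 90.2, 80.7, 82.1 and 93.4 and Snhg8 at 91.8, 83.5, 74.7 and 96.6, so both were among the stronger peaks of every list. Snhg15 was at 91.5, 52.3, 75.6 and 80.8. Snhg16 was at 40.3, 26.8, 27.3 and 57.9, and Snhg17 at 62.9, 16.3, 14.7 and 48.7. Control and esculetin percentiles overlapped in all 5, and esculetin 2 gave the highest value of Snhg5, Snhg8 and Snhg16. Epb41l4aos was called in all libraries but esculetin 2. Snhg3, Snhg4 and Snhg6 were called in all libraries but esculetin 1, with 77.1 for Snhg6 in esculetin 2. Snhg7 was called in esculetin 1 alone, at 41.3, and Snhg12 in esculetin 2 alone, at 54.2.

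Of 18 microRNA host genes, 5 were called, and the libraries called 5, 3, 2 and 2 of them, to be read against the shares over all members just given. Mirt1, also meant for this list, was missed in these counts. It was called in control 1 and esculetin 2, at ranks 12402 and 5792 from the top. Mir22hg was at 84.7, 70.1, 79.8 and 95.7, strong in every library. Dleu2, which hosts miR-15a and miR-16-1, was called in all 4 libraries at 69.4, 79.9, 30.3 and 32.8, which as ranks from the top of each list are 5997, 5582, 6045 and 8598, so that control 1 and esculetin 1 lay close together. Pvt1, whose TSS lies 52645 bp from that of the proto-oncogene Myc, was at 51.0 and 46.3 in the controls and had no summit in either esculetin library. Mir99ahg and Mirc35hg were called in control 1 alone. Mir155hg, the host of the inflammatory microRNA miR-155, and Mir17hg had no summit within 1 kb of the annotated TSS in any library.

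Among 8 nuclear and cell-wide lncRNAs, 5 were called, against 7.06% of all members, and the libraries called 4, 4, 4 and 3 of them. Malat1, an abundant RNA of nuclear speckles, was at 90.5, 97.9, 79.5 and 72.1. As ranks from the top, at 1853, 586, 1782 and 3568, the groups overlapped. The Malat1 summit nearest to the TSS lay 228, 351 and 362 bp downstream in the first 3 libraries and at -952 bp (upstream) in esculetin 2. Neat1, the scaffold of paraspeckles, had no summit in control 1 and was at 7.76 in control 2, 55.5 in esculetin 1 and 53.9 in esculetin 2. Oip5os1, also called Cyrano and known to promote decay of miR-7, was called in all 4 libraries at 26.6, 58.0, 31.5 and 54.0, with overlapping groups. Kcnq1ot1, an imprinted antisense RNA that silences neighbouring genes in cis, was at 67.9, 73.5 and 15.1 and was not called in esculetin 2. As ranks from the top its peaks stood at 6291, 7375 and 7363, so that esculetin 1 lay between both controls. Trp53cor1 was called in control 1 alone at 11.1, while Norad, Nron and Lncpint were not called.

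The macrophage and immune list had 12 members, of which 5, 5, 2 and 4 were called in the libraries, against a general course of 452, 451, 148 and 260 of all 8972 members. Ptgs2os2, also known as lincRNA-Cox2 and induced in activated macrophages, was not called in esculetin 1. It was at 69.7, 74.6 and 49.7 in control 1, control 2 and esculetin 2, with overlapping ranks from the top of 5932, 7064 and 6431. Morrbid, a regulator of myeloid cell survival, was a weak peak at 1.66, 16.9 and 24.0 in the same 3 libraries. Dnmt3aos was at 64.2 and 49.7 in the controls and was not called in either esculetin library. Mexis and Lexis1, both linked to cholesterol metabolism and annotated 110244 and 58693 bp from the TSS of the cholesterol exporter gene Abca1, were not called in any library. Of 8 imprinted lncRNAs, 3 were called, against 7.06% of all members, and the libraries called 3, 2, 1 and 0 of them. Besides Kcnq1ot1 these were Peg13, in both controls at 3.87 and 4.94, and Airn, in control 1 at 16.3. None of 7 lncRNAs of other lineages, Hotair, Sox2ot, Dlx6os1, Hoxd3os1, Miat, Rmst and Bvht, was called in any library. With 7.06% of all members called, a list of 7 is too short to set them apart from other members. Genes of this list within 3 kb of a coding TSS were not members. Of these, Hotairm1, Foxd2os, Hoxa11os and Zeb2os were called in 1 or more libraries, and the others were not.

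**Figure D3:**
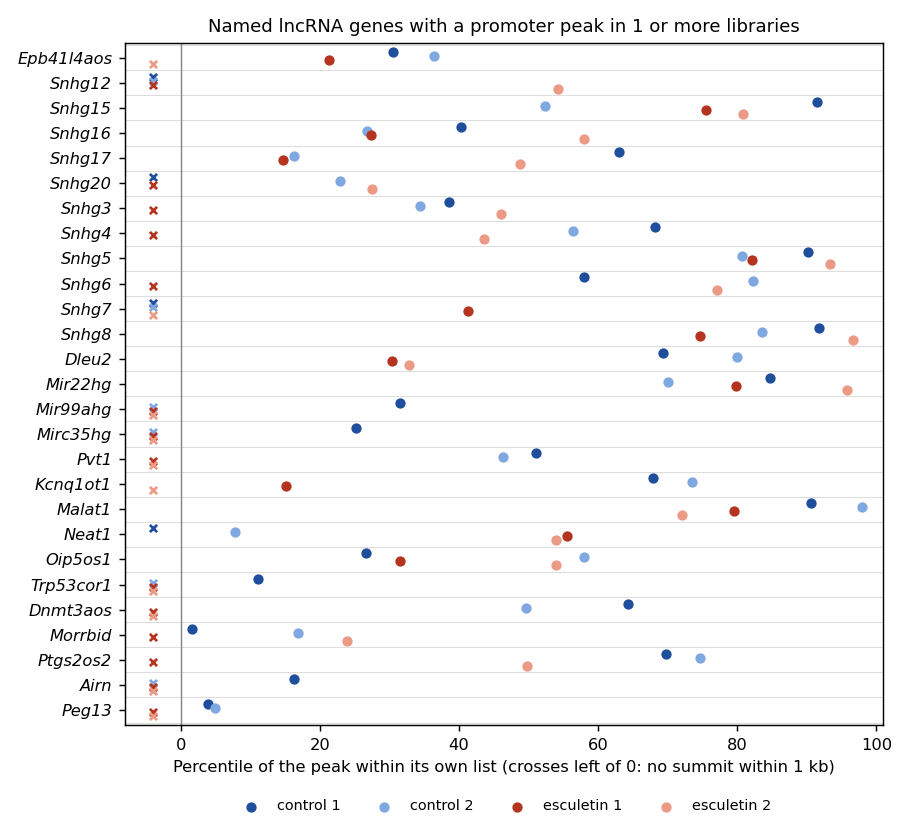
Points give the percentile of the strongest promoter peak within its own list for each named lncRNA of the fixed lists that was called in 1 or more libraries, coloured by library, and crosses left of 0 mark libraries with no summit within 1 kb. Small vertical offsets keep the libraries apart. Mirt1 is not shown. Snhg5, Snhg8 and Mir22hg stay at 70.1 or above in all 4 libraries, while Pvt1, Dnmt3aos and Peg13 have points in the controls only.

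Among members called in all 4 libraries, the 15 with the highest lowest percentile were mostly genes without a functional name. 1700028E10Rik, inside the gene of the GTPase-activating protein Stard13, led with 99.0, 95.4, 97.4 and 96.8. Chaserr followed at 96.8, 93.8, 96.5 and 98.8, with summits 257 to 316 bp upstream of the TSS. 1700096K18Rik and D130051D11Rik came next, with lowest values of 93.5 and 91.6. Gm51701, 43544 bp from the TSS of the chemokine receptor gene Ccr1, was at 97.2, 92.1, 81.0 and 76.3, and as ranks from the top, at 555, 2190, 1653 and 3028, the groups overlapped. 2210406O10Rik was at 88.4, 74.6, 93.4 and 98.0. The other 9 were 1700113A16Rik, 4833417C18Rik, Gm26901, Gm33560, Snhg5, Gm13421, 5430416N02Rik, Snhg8 and Gm46600, with percentiles from 72.6 to 98.4. 4833417C18Rik shares its peak with Gm38959, and 40 called members in all shared a peak with another, leaving 613 distinct sites.

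Members called in both controls and no esculetin library were led by Gm31292, inside the gene of the TGF-beta receptor Tgfbr2, at 91.7 and 83.0. Next were Gm36462 at 82.1 and 80.3, Gm42005 (inside Coro1c, a coronin that binds actin) at 83.0 and 76.6, and E130018N17Rik at 76.0 and 83.8. Gm36417 had the same control ranks as Gm36462 and was not named apart from it. Gm20005, 4724 bp from the TSS of the heat shock gene Hsph1, was at 93.3 and 75.4, and Gm36874 at 83.4 and 72.2. All 6 lay in the upper part of both control lists. Gm46178, at 71.4 in esculetin 1 and 89.1 in esculetin 2, was the reverse case. Its summits lay 127 and 84 bp downstream of the TSS, and the nearest coding TSS, 22488 bp away, was that of Batf3, a transcription factor of dendritic cells.

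Members called in 1 library alone reached high ranks in control 2, where Gm16059, Gm12907 and Gm51908 were at 98.8, 96.9 and 94.3. In control 1 the top values were 73.8 for Gm44148, 69.6 for Gm41153 and 64.7 for Gm34254. In esculetin 2 they were 74.3 for Gm51814, 47369 bp from the TSS of the NF-kB inhibitor gene Tnfaip3, 65.3 for Gm34226 and 59.1 for Gm39321. In esculetin 1 they were 53.0 for Gm52771, 41.3 for Snhg7 and 40.2 for Platr29. Of the 99 members called in control 2 alone, 36.4% lay inside coding genes, against 18.7% of those called in all 4 libraries, 25.6% of all called members and 24.8% of all members.

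At lncRNA and coding promoters, stronger control peaks were found again in the esculetin libraries more often than weaker ones. Of the control 1 peaks at lncRNA promoters, 26.6% were overlapped by a peak of esculetin 1 and 37.9% by a peak of esculetin 2. In steps of 25 percentiles of the control list, from the weakest to the strongest peaks, these shares were 9.68%, 19.5%, 28.7% and 57.1% in esculetin 1. In esculetin 2 they were 12.1%, 30.1%, 46.5% and 72.5%. At every strength, coding promoters kept more, with 27.6%, 44.6%, 65.5% and 87.3% in esculetin 1. Peaks over 3 kb from every lncRNA and coding TSS kept 6.77%, 8.63%, 16.8% and 48.4%, so that the lncRNA promoters lay between both, with intervals that overlapped those of the distal peaks in the weakest and strongest steps. The strongest step of control 2 gave 64.1% in esculetin 1 and 73.1% in esculetin 2 for lncRNA promoters and 14.6% and 16.7% for distal peaks. These overlaps were chosen as measures after the data were seen.

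**Figure D4:**
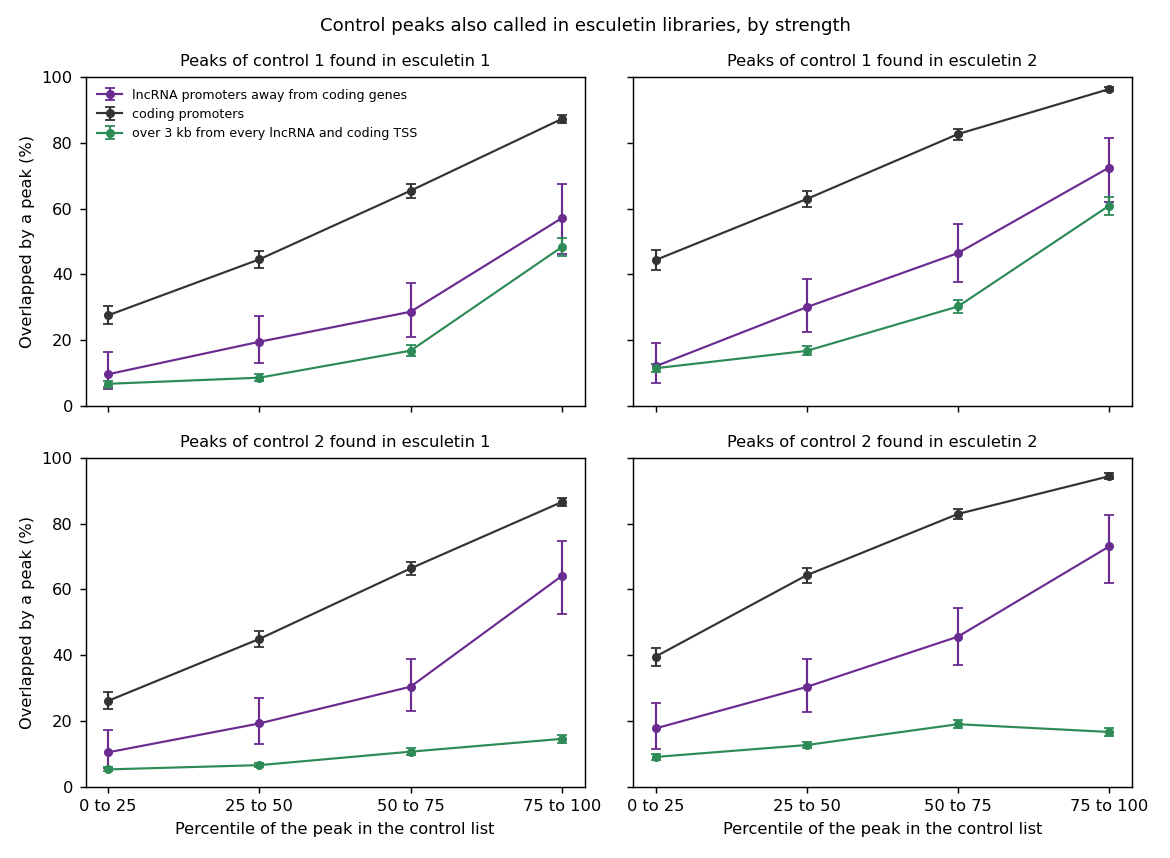
Points give the percent of control peaks overlapped by a peak of an esculetin library, by strength (steps of 25 percentiles of −log10 p) in the control list, for peaks at lncRNA promoters away from coding genes, at coding promoters and over 3 kb from every lncRNA and coding TSS, with 95% exact binomial intervals that cover counting error only. Each panel is 1 pair of libraries. Coding promoters lie highest in every panel at every strength, and the distal peaks of control 2 (bottom panels) lie lowest in every strength class.

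The called members differed in annotation from those not called. Members with a curated transcript were called in 1 or more libraries in 11.6% of cases (256 of 2199), and those with predicted transcripts only in 5.57% (377 of 6773). Of 78 members whose body holds a snoRNA gene, 21 were called (26.9%, exact binomial interval 17.5 to 38.2), 11 of them in all 4 libraries and none in both controls alone. The libraries called 17, 19, 13 and 17 of these 78 (21.8%, 24.4%, 16.7% and 21.8%), against 4.81%, 4.78%, 1.46% and 2.67% of the members that hold neither a snoRNA nor a microRNA gene. Of 80 members that hold a microRNA gene, 13 were called, and the libraries called 12, 12, 6 and 9. The share called in 1 or more libraries was 10.6% for members 3 to 10 kb from a coding TSS, 9.96% at 10 to 30 kb, 7.25% at 30 to 100 kb and 3.49% beyond 100 kb. The median distance was 18953 bp for members called in all 4 libraries, 33747 bp for those called in both controls alone and 55028 bp for those not called.

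CpG content differed between the classes. Promoter sequences of 300 bases were matched for 7295 members. Members called in all 4 libraries held a median of 18 CpG dinucleotides (n = 95), members called in both controls alone held 5 (n = 130), and members not called held 3 (n = 6767). Low content was shared by the members called in 1 control alone, with a median of 5 (n = 153), and in esculetin 2 alone, with a median of 6 (n = 43). The CpG ratio, the observed number over that expected from the C and G content, exceeded 0.6 in 66.3% of those called in all 4 libraries, 7.69% for both controls alone, 15.03% for 1 control alone, 9.30% for esculetin 2 alone and 4.52% of those not called. Among coding promoters it exceeded 0.6 in 46.7% (n = 11889), and among lncRNA promoters near coding genes in 53.1%. The sequences printed above are examples, of which Snhg5, Snhg8 and Chaserr exceed the upper quartile of 28 CpG dinucleotides in their class. They go the same way as the classes, with CpG ratios of 1.26, 1.04 and 0.826 for Snhg5, Snhg8 and Chaserr. The ratios were 0.0896, 0.380, 0.142 and 0.157 for Dnmt3aos, Gm36462, Gm42005 and E130018N17Rik. Mir22hg, at 0.541, shows that a promoter called in all libraries need not exceed the limit.

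**Figure D5:**
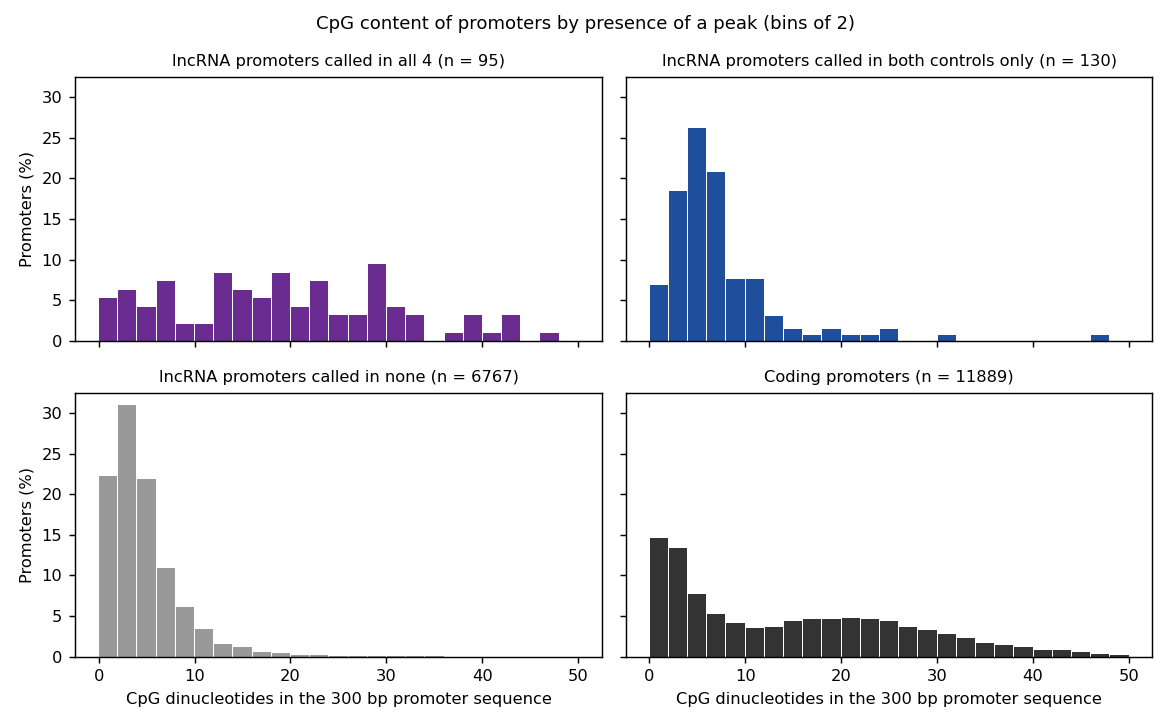
Bars give the percent of promoters by the number of CpG dinucleotides in the 300 bp promoter sequence, in bins of 2, for lncRNA promoters called in all 4 libraries, in both controls only and in none, and for coding promoters. The axes are shared and the vertical axis starts at 0. The class called in all 4 libraries spreads widely around a median of 18, while the class called in both controls only gathers around 5.

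Calls in the esculetin libraries also differed with CpG content. Of members called in both controls with a CpG ratio above 0.6, 88.6% (n = 88, exact binomial interval 80.1 to 94.4) were also called in 1 or more esculetin libraries. Of those with a ratio of at most 0.6, 39.7% were (n = 199, interval 32.8 to 46.9). The members with fewer CpG dinucleotides were also the weaker peaks in the controls, with a median lower percentile of 41.7 against 64.4, so 2 ranges of strength were also taken apart, which narrowed this gap without closing it (medians of 31.1 and 28.1 in the lower range and 74.9 and 65.0 in the upper, for high and low CpG content). Where the lower of both control percentiles was under 50, the shares were 69.0% (n = 29, interval 49.2 to 84.7) and 29.8% (n = 124, interval 21.96 to 38.7). Where it was 50 or more, they were 98.3% (n = 59, interval 90.9 to 100.0) and 56.0% (n = 75, interval 44.1 to 67.5). For coding promoters the shares were 93.3% (n = 3774) above the limit and 78.0% (n = 722) at or below it. At low CpG content the lncRNA interval thus ended below that of coding promoters (74.8 to 81.0), and at high CpG content the intervals of 80.1 to 94.4 and 92.5 to 94.1 overlapped. This split was chosen after the data were seen, and promoters of 1 library share their source, so the intervals cover counting error only.

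Short motifs were searched on both strands of the same sequences. The GC box GGGCGG, read by SP factors, was in 60.0% of members called in all 4 libraries, 19.2% of those called in both controls alone, 7.86% of those not called and 32.7% of all 20912 promoters with a sequence. It overlaps the CpG count by its own letters. The AP-1 motif TGANTCA was in 9.47%, 10.4% and 8.43% of members called in all 4 libraries, of those not called and of all promoters, and in 26 of the 130 members called in both controls alone (exact binomial interval 13.5% to 27.9%). It was also in 16.3% of the 43 members called in esculetin 2 alone, 12.4% of those called in 1 control alone, 11.3% of those called in both controls and 1 esculetin library, and 14.0% of all called members. In the order given for the GC box, the PU.1 motif GAGGAAGT was in 4.21%, 9.23%, 3.46% and 3.46%, and the ETS motif CCGGAAG in 8.42%, 6.15%, 2.53% and 8.66%. For C/EBP, searched as TTGCNNAA and TTGCNNNAA, the shares were 4.21%, 14.6%, 13.1% and 11.4% and then 7.37%, 10.0%, 12.2% and 10.1%. The CRE motif TGACGTCA was in 3.16%, 3.08%, 0.695% and 1.86%, CCAAT in 30.5%, 33.8%, 36.6% and 38.6%, TATAAA in 15.8%, 13.1%, 17.4% and 15.5%, and the NRF1 motif in 1.05%, 0.769%, 0.0591% and 0.971%. Of the printed controls-only sequences, Dnmt3aos and Gm42005 hold the AP-1 letters and E130018N17Rik both C/EBP spacings. Among members called in both controls, 38.1% of the 42 with AP-1 letters (interval 23.6 to 54.4) and 57.6% of the 245 without (interval 51.1 to 63.8) were called in 1 or more esculetin libraries, and these intervals overlapped. A match is a description of letters and not of binding.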

How the data were processed

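RAW264.7 cells were profiled by ATAC-seq, and 1 peak list per library was deposited (2 control, 2 esculetin). Per the study's methods, the authors used Trim-Galore for trimming, Bowtie2 for alignment to mm10, Sambamba to drop PCR duplicates and reads with several positions, and MACS2 to call peaks. The options used, including any shift of Tn5 ends, are not given in the sources used here. Each deposited peak carries a score, a fold enrichment (ratio) over local background, a −log10 p and a −log10 q at its summit.

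TSSs came from the RefSeq gene table (GRCm38.p6, the coordinates of mm10). Strand came from RefSeq promoters (9291 lncRNA genes) or from GENCODE by symbol (1800). Where both gave it, they matched in 99.4% of 22230 genes. The 1317 lncRNA genes without a strand and the sex chromosomes were left out of the main counts. A promoter was called when a summit lay within 1 kb of the TSS, and its percentile was the rank of its −log10 p within its list. A start site other than the annotated one, or a summit just past the window, is missed. Groups were compared by two-sided exact permutation (6 arrangements of the 4 libraries), and shares carry exact (Clopper-Pearson) 95% intervals. Peak lists hold no counts, so no model of counts was fitted, and intervals cover counting error only. Alternatives changed the window, the overlap, the q limit, the number of peaks, the members and the libraries used.

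Genes were named by fixed lists and by rank, namely the 15 members called in all 4 libraries with the highest lowest percentile, 6 for both controls alone, 6 for both esculetin libraries alone (1 existed) and 3 per library for those called in 1 library. Members that share a summit were named by the TSS nearest to it. Members, lists and tests were chosen with earlier results of these data known. On simulated data, 200 of 200 summits placed in windows were recovered with 0 false calls among 8262 promoters. The scripts ran in Python 3.11.15, with SciPy 1.17.1 for exact intervals, pandas 2.3.3 and NumPy 2.4.6 for tables, and matplotlib 3.10.9 for plots.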

Additional observations from a re-analysis of the deposited data

How the results depend on the processing

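The lower number of called lncRNA promoters and the lower ratio to coding promoters kept their sign under the alternatives run, except for the count with equal numbers of peaks and 1 library left out, with differences of -303.5 to -191.5 promoters and -0.0709 to -0.0478 when 1 library was left out, and the lower share inside coding genes did so at -7.01 to -4.10 percentage points, with -11.7 among symbols other than Gm, LOC and Rik numbers and -4.02 with a 2 kb window. The exact permutation test cannot give a p below 0.333. The percentile gap, at -1.14 points, turned to 1.99 with a 500 bp window and 0.159 with −log10 q of at least 5, was -10.8 with equal numbers of peaks, and ranged from -3.77 to 1.5 without 1 library. The share of the list turned to 0.0808 percentage points among symbols other than Gm, LOC and Rik numbers and ranged from -0.586 to 0.143. The share within 250 bp turned to -0.332 with equal numbers of strongest peaks and -3.02 with those symbols, was 4.57 with −log10 q of at least 5, and ranged from -0.265 to 1.15. Calls in all 4 libraries numbered 58 with equal numbers of peaks, 19 with those symbols and 111 to 166 without 1 library, and calls in both controls alone 17, 8 and 167 to 252. Calls in both esculetin libraries alone numbered 4 with a 2 kb window or any overlap of 1 bp, 24 with equal numbers of peaks, 3 with −log10 q of at least 5, 0 with those symbols, 2 with either end of genes without strand, and 5 to 55 without 1 library. Without 1 library these class counts could only stay or rise, since fewer calls are asked for. The cause of the other changes was not tested. Equal numbers of peaks without control 1, control 2, esculetin 1 and esculetin 2 in turn, chosen after the data were seen, gave 34, -45, 0.5 and -11.5 promoters, -0.0132, -0.0270, -0.0201 and -0.0201 in the ratio, and 0.416, -0.511, 0.0238 and -0.119 percentage points in the list share. Pairing libraries by number as a replicate block left each difference as it was (-247.5 promoters), with sign-flip p at or above 0.5. Same-numbered libraries did not deviate together (r = -0.0236 over 9779 promoters), and their numbers differ between labels and peak names. Restricting members to TSSs in no coding gene gives no value for the share inside coding genes. Unknown read depth limits every count, since an uncalled promoter may be open.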

Other observations

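The X chromosome, left out of the main counts, held 209 lncRNA promoters over 3 kb from every coding TSS, of which 7, 8, 2 and 3 were called in control 1, control 2, esculetin 1 and esculetin 2. Among 955 coding promoters of this chromosome, 162, 184, 92 and 141 were called. Firre, a nuclear lncRNA that helps to organise chromosomes, was at percentiles 84.1 and 50.8 in the controls and was not called in either esculetin library. 5730405O15Rik was called in all 4 libraries, at 65.7, 6.71, 72.0 and 52.3. Of 1111 lncRNA genes on the other chromosomes that lack a strand and whose ends lie over 3 kb from coding TSSs, 42, 47, 8 and 15 had a summit near either end.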
